A study of Homo sapiens with 8 samples.

Results

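The genes examined were the actin nucleation and lamellipodium machinery, 49 genes selected from a list of gene symbols by role, among 30017 symbols in the expression tables. They comprised 12 genes of the Arp2/3 complex and its branch regulators, 12 of the WAVE complex with N-WASP and IRSp53, 3 Ena/VASP genes, 5 cofilin and profilin genes, 3 capping protein genes, 6 formins, and 8 genes of the PAK, LIM kinase, slingshot and IQGAP1 group. Measured levels were not part of the rule, but the genes were chosen with earlier results of these data known. The values in TPM (a transcript's share of its library, corrected for transcript length) of records with 1 symbol were summed.

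The study concerned TGF-β-induced cell motility in A549 human lung adenocarcinoma cells. Its RNA-seq part asked how 2 mutated residues of Smad3, a transcription factor activated by TGF-β, bear on gene expression in these cells. All 8 RNA-seq libraries came from A549-S3KO cells, an A549 derivative in which SMAD3 had been knocked out, infected with lentivirus carrying either Smad3(RA/KP), the R104K A105P double mutant, or wild-type Smad3. Cells were seeded on collagen-coated plates and were either given TGF-β at 1 ng/ml for 8 h or left untreated, with 2 libraries in each of the 4 groups: treated Smad3(RA/KP), untreated Smad3(RA/KP), treated wild-type Smad3 and untreated wild-type Smad3. Infected cells were cloned by limiting dilution and the sequenced clones were not named, so the form of Smad3 and the clone cannot be told apart.

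Lamellipodia are flat sheets of branched actin filaments at the front of a moving cell. Active Rac1 engages the WAVE complex, which switches on the Arp2/3 complex to grow new filaments from the sides of old ones. Ena/VASP proteins and formins elongate filaments, profilin supplies actin monomers, capping protein stops growth, and cofilin severs old filaments until LIM kinases, acting downstream of PAK, phosphorylate it. Slingshot phosphatases reverse that phosphorylation. Most of this control is exerted on proteins, and the data here are RNA levels.

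The libraries held 1.15 to 1.81 Gb of mapped sequence, as derived from the ratio of deposited coverage to FPKM, and 12773 to 13281 genes at 1 TPM or more. SMAD3 RNA, which sums any transcript of the knocked-out gene and the viral cDNA, was 168 and 169 TPM in treated Smad3(RA/KP) libraries, 144 and 180 in untreated Smad3(RA/KP), 137 and 166 in treated wild-type and 158 and 187 in untreated wild-type libraries. Treated and untreated libraries overlapped in each line, and untreated libraries overlapped between lines, while both treated Smad3(RA/KP) libraries lay above both treated wild-type libraries. Of the epithelial markers, KRT8 was at 4235.4 to 6861.5 TPM and KRT18 at 2532.6 to 5845.5 TPM, whereas KRT19 was listed at 0 and EPCAM was at 1.40 to 3.95 TPM. Of 14 markers of other cell types, 11 were under 1 TPM throughout, the leukocyte, endothelial and fibroblast markers PTPRC, PECAM1 and DCN were listed at 0, and the exceptions were CD14 at 4.11 to 13.5 TPM, LUM at 0.33 to 5.19 TPM and ACTA1 at 0 to 1.67 TPM. LUM, a stromal proteoglycan gene, was higher in Smad3(RA/KP) than in wild-type cells without passing the limma threshold (log2 difference 0.94 treated and 1.06 untreated, adjusted p = 0.612 and 1.0), and its part in the results was not tested. The summed level of the 14 was 8.56 to 11.8 TPM in treated and 9.84 to 19.7 in untreated Smad3(RA/KP) cells, against 4.82 to 8.64 in treated and 7.83 to 16.4 in untreated wild-type cells. All 10 known TGF-β targets examined rose in wild-type cells and 9 of 10 rose in Smad3(RA/KP) cells (limma, adjusted p below 0.05).

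One library stood apart. In untreated Smad3(RA/KP) replicate 2 the log2 ratio to replicate 1 declined with the GC content of the transcript (Spearman's correlation -0.59 over 12388 genes, which share the libraries and differ in length and depth), whereas in the other 3 groups it was 0.10 to 0.22. Over the 48 genes of the machinery that were tested, the correlation was -0.54 in untreated Smad3(RA/KP) cells. Genes of low GC content were higher there. DSTN, which encodes the cofilin relative destrin (40.7% GC), was at 1049.8 TPM in replicate 2 against 551 in replicate 1, and CFL2 (34.8% GC) was at 71.0 against 28.9. In all, 18 of the 48 genes had their highest level of the 8 libraries in this library, where 34.0% of all 13141 tested genes did. When this library was left out, the log2 fold change of the TGF-β response in Smad3(RA/KP) cells changed sign for 14 of the 48 genes, to positive for ARPC1A, ARPC2, ARPC5L, ACTR2, ACTR3, CORO1C, NCKAP1, CAPZA2, DIAPH2, DIAPH3, FMNL2, PAK2 and IQGAP1 and to negative for CORO1B. None of these 14 passed the test in either setting. The relation to GC content was not confined to this library. Over the same 12388 genes, the log2 difference between treated lines, which does not involve it, had a Spearman's correlation with GC content of 0.54. The correlation was 0.53 for the Smad3(RA/KP) response, 0.62 for the difference of the responses, -0.38 between untreated lines and -0.02 for the wild-type response. Values without this library are given below for some of the genes only, and their absence elsewhere does not mean no change.

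Nearly all of the machinery was expressed. Of the 49 genes, 48 had a mean of at least 1 TPM and were tested, and the exception was the WAVE isoform gene WASF3, listed at 0 in 2 libraries and at no more than 0.23 TPM in the others. Among the tested genes, mean levels spanned from 2.03 TPM for the formin FMNL3 to 3417.4 TPM for profilin 1 (PFN1). The cofilin and profilin genes were the highest group, with a median of 607 TPM, followed by the Arp2/3 genes with 179 TPM, while formins had a median of 8.81 TPM.

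Only the LIM kinase gene LIMK1 passed the test in any comparison. In limma fits of log2(TPM + 1) with the replicate number as a block, 1 of the 48 genes rose and 0 fell after TGF-β in Smad3(RA/KP) cells at an adjusted p below 0.05, where 4.98% of all 13141 tested genes passed (3.49% higher and 1.5% lower). In wild-type cells 0 of 48 passed, where 4.68% of all tested genes did (2.94% higher and 1.74% lower). At an unadjusted p below 0.05, 13 of the 48 genes differed in Smad3(RA/KP) cells, 8 higher and 5 lower, which is 27.1% where 21.9% of all genes did (9.76% higher and 12.1% lower). In wild-type cells 8 did, 6 higher and 2 lower, which is 16.7% where 16.5% of all genes did (7.59% higher and 8.93% lower). The log2 fold change was positive for 21 of 48 genes in Smad3(RA/KP) cells and for 32 of 48 in wild-type cells, where it was for 40.3% and 41.4% of all genes. Without untreated Smad3(RA/KP) replicate 2, 0 of 48 passed in Smad3(RA/KP) cells, where 2.69% of all genes did, 8 had an unadjusted p below 0.05 (16.7%, against 14.95% of all genes) and 33 were positive, where 48.7% of all genes were. Without untreated Smad3(RA/KP) replicate 1 instead, 19 of 48 were positive in Smad3(RA/KP) cells, where 39.6% of all genes were. With the GC trend removed, 26 of 48 were positive there, where 38.0% of all genes were. The study describes 2 independent experiments, the labels give no more than a replicate number, and p-values measure only the spread between these libraries.

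LIMK1 phosphorylates and inactivates cofilin. Its level was 79.8 and 96.5 TPM in treated against 47.2 and 45.6 TPM in untreated Smad3(RA/KP) cells, and 67.4 and 82.0 TPM in treated against 51.4 and 53.2 TPM in untreated wild-type cells. Both treated libraries lay above both untreated libraries in each line. LIMK1 rose by 0.91 on the log2 scale in Smad3(RA/KP) cells (SE 0.17, limma adjusted p = 0.0158). In wild-type cells the log2 fold change was 0.50 (SE 0.17), which did not pass (limma adjusted p = 0.145), and the difference between the responses was 0.41 (SE 0.23, unadjusted p = 0.117, adjusted p = 0.881). When untreated Smad3(RA/KP) replicate 2 was omitted, the log2 fold change was 0.78 with an adjusted p of 0.0601, and without treated replicate 1 or treated replicate 2 the adjusted p was 0.0753 and 0.151. With the GC trend removed it was 0.78 with an adjusted p of 0.0129. Over 19 alternative settings the adjusted p ranged from 0.0101 to 0.151.

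LIMK1 lies at chr7:74083777-74122525 on the plus strand (GRCh38), with no overlapping gene record. RefSeq (GRCh38.p14) gives 2 promoter windows of 300 bases for it, each from 250 bases before to 50 after a transcript start, and they are shown because LIMK1 was the one gene of the set that passed the test. Capitals mark CAGAC or its reverse complement GTCTG, the core letters of the Smad-binding element, searched on both strands.
LIMK1 window 1, chr7:74083554-74083853, plus strand: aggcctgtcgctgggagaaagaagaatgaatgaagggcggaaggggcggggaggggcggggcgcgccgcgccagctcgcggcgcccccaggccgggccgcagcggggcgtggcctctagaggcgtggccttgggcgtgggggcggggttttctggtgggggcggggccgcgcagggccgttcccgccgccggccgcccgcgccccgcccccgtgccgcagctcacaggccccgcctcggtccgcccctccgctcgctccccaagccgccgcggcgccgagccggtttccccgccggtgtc
LIMK1 window 2, chr7:74092967-74093266, plus strand: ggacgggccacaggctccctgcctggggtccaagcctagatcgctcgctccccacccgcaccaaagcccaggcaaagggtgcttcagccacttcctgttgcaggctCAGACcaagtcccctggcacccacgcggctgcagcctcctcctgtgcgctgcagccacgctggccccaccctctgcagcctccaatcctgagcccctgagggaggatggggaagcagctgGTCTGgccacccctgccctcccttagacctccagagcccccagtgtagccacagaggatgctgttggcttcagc
Window 1, whose transcript start was 27 bases from the 5′ end of the deposited record, held no match and was 79.7% GC. Window 2 held 2 matches, which began at bases 107 and 227 of the window. Such letters are common: they occurred in 45.3% of all 35116 promoter windows and in 29.2% of the 65 windows found for 45 of the 49 genes.

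The paralogue LIMK2, which also phosphorylates cofilin, had a mean of 8.09 TPM over the 8 libraries, where LIMK1 had 65.4 TPM. It was at 12.6 and 8.77 TPM in treated against 6.16 and 6.51 TPM in untreated Smad3(RA/KP) cells, and at 9.81 and 10.9 TPM in treated against 4.22 and 5.77 TPM in untreated wild-type cells. The treated libraries were again above the untreated ones in both lines. The log2 fold changes were 0.65 (SE 0.25, adjusted p = 0.183) in Smad3(RA/KP) and 0.93 (SE 0.25, adjusted p = 0.0811) in wild-type cells, and neither passed in the limma fit. Of the TPM of both LIM kinases, LIMK2 made up 13.6% and 8.33% in treated against 11.5% and 12.5% in untreated Smad3(RA/KP) libraries, and 12.7% and 11.7% in treated against 7.59% and 9.80% in untreated wild-type libraries. Its 2 promoter windows on chromosome 22 held 0 and 2 matches to the same letters.

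**Figure D1:**
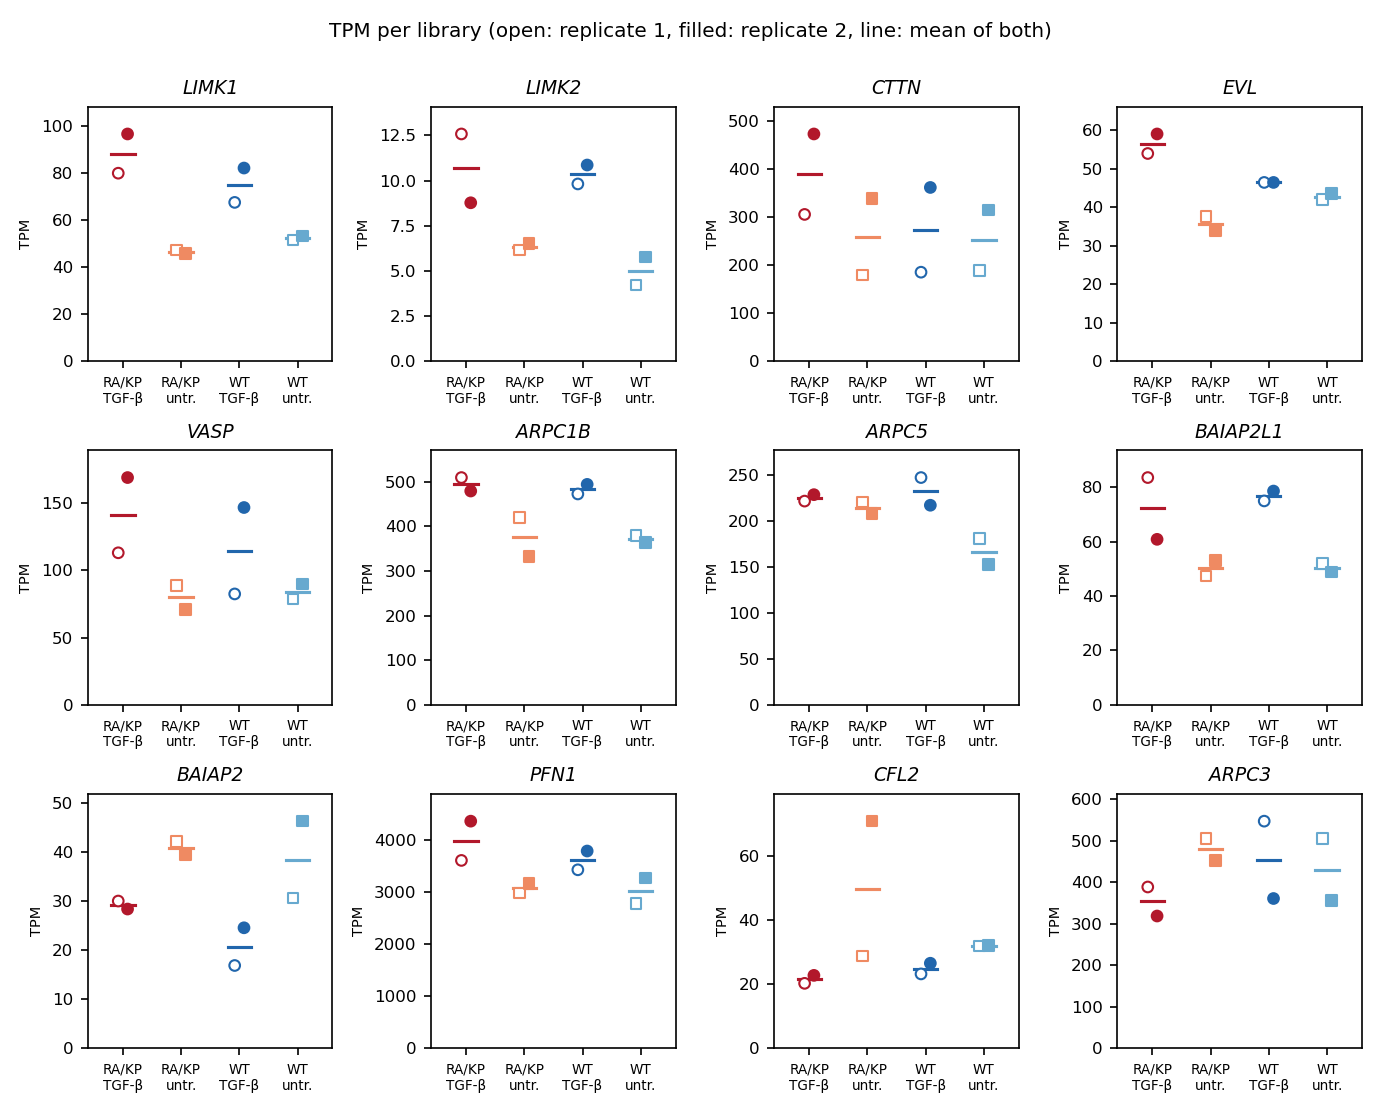
TPM per library for 12 genes of the machinery, with the mean of each group of 2 as a line; open symbols are replicate 1 and filled symbols replicate 2. LIMK1, LIMK2, EVL, ARPC1B, BAIAP2L1 and PFN1 were higher in both treated libraries than in both untreated libraries of each line, and BAIAP2 and CFL2 were lower.

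The other genes of the LIM kinase group did not pass. The slingshot phosphatase gene SSH2 was higher in both treated than in both untreated libraries of each line, at 25.0 and 22.4 TPM against 15.4 and 19.6 TPM in Smad3(RA/KP) cells and 20.8 and 19.8 TPM against 15.5 and 18.6 TPM in wild-type cells. Its log2 fold changes were 0.42 (SE 0.20) and 0.24 (SE 0.20) in the 2 lines. SSH1 and SSH3, the kinases PAK1 and PAK2, and the Rac1 and Cdc42 effector IQGAP1 had log2 fold changes between -0.38 and 0.35 in Smad3(RA/KP) cells and between -0.48 and 0.36 in wild-type cells. Without untreated Smad3(RA/KP) replicate 2, the Smad3(RA/KP) values of PAK2 and IQGAP1 were 0.01 (SE 0.29) and 0.30 (SE 0.28) in place of -0.38 and -0.05.

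Within the Arp2/3 group no gene passed in either line. The median log2 fold change of the 12 genes was -0.09 in Smad3(RA/KP) cells and 0.19 in wild-type cells, where the medians of all genes were -0.10 and -0.06. The sign was positive for 5 of 12 genes in Smad3(RA/KP) cells and for 11 of 12 in wild-type cells. With untreated Smad3(RA/KP) replicate 2 left out, it was positive for 10 of 12 genes in Smad3(RA/KP) cells, with a median of 0.14. With untreated Smad3(RA/KP) replicate 1 left out instead, it was positive for 5 of 12 genes there, with a median of -0.28. The 2 untreated Smad3(RA/KP) libraries differed for several Arp2/3 genes. The subunit genes ACTR2, ACTR3, ARPC2 and ARPC5L were at 69.5, 43.3, 213 and 68.5 TPM in replicate 2 against 36.5, 25.8, 172 and 37.0 TPM in replicate 1. Replicate 1 was the lowest of the 8 libraries for ACTR2, ACTR3 and ARPC5L. Replicate 2 was the highest for ACTR2, ARPC2 and ARPC5L, while ACTR3 was highest in treated wild-type replicate 2, at 44.7 TPM.

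ARPC1B, which encodes a subunit that exists in alternative A and B forms and was the most abundant of the group, was at 509.7 and 479.5 TPM in treated against 420.6 and 332 TPM in untreated Smad3(RA/KP) cells. In wild-type cells it was at 473 and 494 TPM in treated against 379.6 and 363 TPM in untreated libraries. The groups did not overlap in either line, and the log2 fold changes were alike in size, 0.40 (SE 0.16, adjusted p = 0.185) and 0.38 (SE 0.16, adjusted p = 0.266). Without untreated Smad3(RA/KP) replicate 2 the first was 0.25 (SE 0.14). As a share, ARPC1B formed 74.3% and 75.8% of the ARPC1A and ARPC1B total in treated against 72.4% and 63.8% in untreated Smad3(RA/KP) cells, and 71.6% and 75.7% in treated against 68.2% and 68.9% in untreated wild-type cells.

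ARPC5, another subunit with 2 forms, was at 221 and 228 TPM in treated against 220.3 and 208 TPM in untreated Smad3(RA/KP) cells, and at 247 and 217 TPM in treated against 180.4 and 153 TPM in untreated wild-type cells. The 2 untreated wild-type libraries were the lowest of the 8. Its log2 fold change was 0.07 (SE 0.15) in Smad3(RA/KP) and 0.48 (SE 0.15, unadjusted p = 0.0113) in wild-type cells, with a difference of -0.41 (SE 0.21, adjusted p = 0.881). In the limma comparison of untreated lines ARPC5 was the only 1 of the 48 genes below an unadjusted p of 0.05 (log2 difference 0.37, SE 0.15, unadjusted p = 0.0382, adjusted p = 1.0), where 2.5% of all genes had one (1.53% higher).

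CTTN encodes cortactin, which holds Arp2/3 branches in place. It was at 305 and 473 TPM in treated against 179 and 338 TPM in untreated Smad3(RA/KP) cells, and at 185 and 361 TPM in treated against 189 and 314 TPM in untreated wild-type cells. Replicate 2 was the higher in all 4 groups by 0.63 to 0.96 on the log2 scale, and the 2 Smad3(RA/KP) groups overlapped unless replicates were paired. Within pairs the treated library was above the untreated one by 0.76 and 0.48 in Smad3(RA/KP) cells. The log2 fold change there was 0.62 (SE 0.15, adjusted p = 0.0557), just short of the threshold, against 0.09 (SE 0.15, adjusted p = 0.880) in wild-type cells. Over the 11 other settings that kept all libraries, the limma adjusted p in Smad3(RA/KP) cells ranged from 0.0308 to 0.476. Across all tested genes, the log2 differences of replicate 2 from replicate 1 in the 2 Smad3(RA/KP) groups had a correlation of 0.05. In limma, the difference of the responses was 0.54 (SE 0.22, unadjusted p = 0.0362), the smallest p of the 48 genes, which did not pass (adjusted p = 0.881). With the GC trend removed, its unadjusted p was no longer below 0.05.

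ARPC3, which encodes a core subunit, had log2 fold changes of opposite sign in the 2 lines in both pairs. It was at 389 and 319 TPM in treated against 506 and 453 TPM in untreated Smad3(RA/KP) cells, and at 548 and 361 TPM in treated against 506 and 356 TPM in untreated wild-type cells. The wild-type groups overlapped and the Smad3(RA/KP) groups did not. The difference of the responses was -0.51 (SE 0.23, unadjusted p = 0.0551, adjusted p = 0.881), and without untreated Smad3(RA/KP) replicate 2 the Smad3(RA/KP) response was -0.29 in place of -0.44. The formin gene FMNL1 was the only other gene of the set with that pattern, which 8.37% of all tested genes showed.

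The WAVE group also had no gene past the threshold, and it held genes with either sign. BAIAP2 encodes IRSp53, which links Rac1 to WAVE and bends the membrane outward. It was at 30.0 and 28.4 TPM in treated against 42.1 and 39.4 TPM in untreated Smad3(RA/KP) cells, and at 16.9 and 24.6 TPM in treated against 30.6 and 46.3 TPM in untreated wild-type cells. Treated libraries were below untreated ones in both lines. The log2 fold changes were -0.47 (SE 0.22, adjusted p = 0.260) and -0.85 (SE 0.22, adjusted p = 0.0695). BAIAP2 passed in wild-type cells under 5 of 19 alternative settings, and in Smad3(RA/KP) cells with the GC trend removed, where its log2 fold change was -0.85 (adjusted p = 0.0436). When untreated Smad3(RA/KP) replicate 2 was omitted, it was -0.68 (adjusted p = 0.247).

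BAIAP2L1, a relative of IRSp53 also known as IRTKS, stood on the other side. It was at 83.6 and 60.9 TPM in treated against 47.4 and 53.1 TPM in untreated Smad3(RA/KP) cells, and at 75.0 and 78.7 TPM in treated against 52.1 and 48.9 TPM in untreated wild-type cells. The groups were separate in both lines, with log2 fold changes of 0.50 (SE 0.19, adjusted p = 0.170) and 0.60 (SE 0.19, unadjusted p = 0.0113). The share of BAIAP2L1 in the sum of the 2 genes was 73.6% and 68.2% in treated against 52.9% and 57.4% in untreated Smad3(RA/KP) cells, and 81.6% and 76.2% in treated against 63.0% and 51.4% in untreated wild-type cells. In each line the share was higher in both treated libraries than in both untreated ones. The pairs of related genes for which shares are given were chosen with these values known, and the shares carry no test.

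The 5-part WAVE complex itself showed a mixed pattern. CYFIP2, 1 of 2 alternative Rac1-binding subunit genes, was at 7.71 and 6.11 TPM in treated against 8.07 and 9.91 TPM in untreated Smad3(RA/KP) cells, and at 7.01 and 6.62 TPM in treated against 12.5 and 10.5 TPM in untreated wild-type cells. It was lower in both treated libraries of each line, with log2 fold changes of -0.34 (SE 0.23) and -0.67 (SE 0.23, adjusted p = 0.152), and the first was -0.11 (SE 0.22) without untreated Smad3(RA/KP) replicate 2. Its share of the CYFIP1 and CYFIP2 total was 8.35% and 7.16% in treated against 10.3% and 10.7% in untreated Smad3(RA/KP) cells, and 7.84% and 6.63% in treated against 14.9% and 11.7% in untreated wild-type cells. CYFIP1 was the main form, at 70.6 to 93.2 TPM over the 8 libraries.

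ABI1, which encodes the Abl-interactor subunit, was at 34.2 and 20.3 TPM in treated against 28.8 and 27.5 TPM in untreated Smad3(RA/KP) cells, and at 40.4 and 38.5 TPM in treated against 24.8 and 27.0 TPM in untreated wild-type cells. Its libraries were separate in wild-type cells alone, where the log2 fold change was 0.59 (SE 0.22, adjusted p = 0.213), against -0.09 (SE 0.22) in Smad3(RA/KP) cells. The difference of the responses was -0.68 (SE 0.32, unadjusted p = 0.0590, adjusted p = 0.881). Over all fits with 1 library left out, this difference ranged from -1.04 to -0.325, and the Smad3(RA/KP) response of ABI1 from -0.45 to 0.27. BRK1, the smallest subunit and the most abundant of the group, was at 151 and 119 TPM in treated against 159 and 150.5 TPM in untreated Smad3(RA/KP) cells, and at 157 and 129 TPM in treated against 167 and 137 TPM in untreated wild-type cells, with log2 fold changes of -0.21 (SE 0.15) and -0.08 (SE 0.15). Among the WAVE isoform genes WASF2 made up 77.4% to 88.4% of the TPM in every library. WASF1, WASF2, WASL (N-WASP), NCKAP1, CYFIP1 and ABI2 did not pass either, with log2 fold changes from -0.52 to 0.10 in Smad3(RA/KP) and from -0.40 to 0.40 in wild-type cells.

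All 3 Ena/VASP genes had positive log2 fold changes in both lines, with a median of 0.65 in Smad3(RA/KP) and 0.38 in wild-type cells, and none passed. EVL was at 54.0 and 59.1 TPM in treated against 37.6 and 33.9 TPM in untreated Smad3(RA/KP) cells, and at 46.5 and 46.5 TPM in treated against 42.0 and 43.6 TPM in untreated wild-type cells. The groups were separate in both lines and the gap was wider in Smad3(RA/KP) cells. The log2 fold changes were 0.65 (SE 0.16, adjusted p = 0.0600) and 0.12 (SE 0.16, adjusted p = 0.830), with a difference of 0.53 (SE 0.23, unadjusted p = 0.0473, adjusted p = 0.881). With the GC trend removed, the unadjusted p of the difference was no longer below 0.05. Without untreated Smad3(RA/KP) replicate 2 the Smad3(RA/KP) value was 0.54 (adjusted p = 0.154).

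VASP, the most abundant of the 3, was at 113 and 169 TPM in treated against 88.8 and 71.0 TPM in untreated Smad3(RA/KP) cells, and at 82.5 and 147 TPM in treated against 78.6 and 89.9 TPM in untreated wild-type cells. The wild-type groups overlapped. In Smad3(RA/KP) cells the log2 fold change was 0.79 (SE 0.25, adjusted p = 0.115). Without untreated replicate 2 it was 0.37, and over all fits with 1 library left out it ranged from 0.37 to 1.22. ENAH (Mena), the least abundant, was at 13.5 and 11.7 TPM in treated against 9.47 and 12.3 TPM in untreated Smad3(RA/KP) cells, and at 18.6 and 15.1 TPM in treated against 13.2 and 11.6 TPM in untreated wild-type cells, with log2 fold changes of 0.20 (SE 0.22) and 0.41 (SE 0.22). With untreated Smad3(RA/KP) replicate 2 left out, the Smad3(RA/KP) value of ENAH was 0.48, and over all fits with 1 library left out it ranged from -0.08 to 0.48. Without untreated Smad3(RA/KP) replicate 1, 2 of the 3 Ena/VASP genes were positive in Smad3(RA/KP) cells and 1 was negative.

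In the cofilin and profilin group PFN1 and CFL1 had positive and PFN2, CFL2 and DSTN negative log2 fold changes in both lines, and none passed. PFN1, which delivers actin monomers to growing ends, was at 3603.2 and 4356.1 TPM in treated against 2978.7 and 3155.0 TPM in untreated Smad3(RA/KP) cells, and at 3423.4 and 3783.5 TPM in treated against 2771.4 and 3267.6 TPM in untreated wild-type cells. Treated libraries were above untreated ones in both lines, with log2 fold changes of 0.37 (SE 0.16, adjusted p = 0.217) and 0.26 (SE 0.16, adjusted p = 0.505). PFN2, the second profilin gene, was at 108 and 99.2 TPM in treated against 149 and 168 TPM in untreated Smad3(RA/KP) cells, and at 137 and 103 TPM in treated against 155 and 120.0 TPM in untreated wild-type cells. It was lower in the treated library of all 4 same-numbered pairs, as 20.1% of all tested genes were, with log2 fold changes of -0.60 (SE 0.18, adjusted p = 0.102) and -0.20 (SE 0.18). Without untreated Smad3(RA/KP) replicate 2 the Smad3(RA/KP) value of PFN2 was -0.37 (SE 0.16).

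CFL2, the muscle-type cofilin gene, was at 20.3 and 22.8 TPM in treated against 28.9 and 71.0 TPM in untreated Smad3(RA/KP) cells, and at 23.2 and 26.6 TPM in treated against 31.9 and 32.1 TPM in untreated wild-type cells. Treated libraries were lower in both lines. In Smad3(RA/KP) cells the log2 fold change was -1.04 (SE 0.29, adjusted p = 0.0818). Without untreated replicate 2 it was -0.47, and over all fits with 1 library left out it ranged from -1.62 to -0.47. In wild-type cells it was -0.35 (SE 0.29). For DSTN the Smad3(RA/KP) value was -0.56 (SE 0.24) with that library and -0.09 (SE 0.14) without it. CFL1, the main cofilin gene, ranged only from 1870.4 to 2450.3 TPM over the 8 libraries and had log2 fold changes of 0.04 (SE 0.15) and 0.14 (SE 0.15).

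Capping protein is a pair of one α and one β subunit. CAPZA1 was at 27.6 and 25.8 TPM in treated against 32.1 and 47.99 TPM in untreated Smad3(RA/KP) cells, and at 38.0 and 30.6 TPM in treated against 35.0 and 33.7 TPM in untreated wild-type cells. Its log2 fold change in Smad3(RA/KP) cells was -0.54 (SE 0.22, adjusted p = 0.207) with untreated replicate 2 and -0.18 without it. Over all fits with 1 library left out it ranged from -0.90 to -0.18. In wild-type cells the log2 fold change was -0.01 (SE 0.22). CAPZA2, the other α gene, was at 61.5 and 49.2 TPM in treated against 58.1 and 115.9 TPM in untreated Smad3(RA/KP) cells, and at 65.5 and 61.2 TPM in treated against 79.8 and 72.3 TPM in untreated wild-type cells. Its Smad3(RA/KP) log2 fold change was -0.57 (SE 0.29) with that library and 0.02 (SE 0.16) without it. The β gene CAPZB was at 135 and 119 TPM in treated against 123 and 128 TPM in untreated Smad3(RA/KP) cells, and at 139.7 and 153 TPM in treated against 116 and 123 TPM in untreated wild-type cells. Its log2 fold change was 0.02 (SE 0.15) in Smad3(RA/KP) and 0.29 (SE 0.15, unadjusted p = 0.0912) in wild-type cells.

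On log2(TPM + 1), which understates changes of low genes, the formins had the narrowest range of log2 fold changes among the 7 groups over both lines. No formin gene had an unadjusted p below 0.05 in either line, and log2 fold changes ran from -0.27 to 0.30 in Smad3(RA/KP) and from -0.10 to 0.30 in wild-type cells. DIAPH2, DIAPH3 and FMNL3 were low, at means of 2.3, 3.91 and 2.03 TPM. Under other settings with all libraries kept, DIAPH2 reached -0.34 in Smad3(RA/KP) and 0.41 in wild-type cells, beyond those ranges. FMNL1 was at 36.8 and 56.7 TPM in treated against 33.5 and 42.6 TPM in untreated Smad3(RA/KP) cells, and at 33.1 and 52.2 TPM in treated against 35.8 and 55.6 TPM in untreated wild-type cells. Replicate 2 exceeded replicate 1 in all 4 groups, by 0.34 to 0.64 on the log2 scale, and the log2 fold changes were 0.27 (SE 0.17, adjusted p = 0.376) and -0.10 (SE 0.17). DIAPH1, which encodes the formin mDia1, was at 29.3 to 35.7 TPM in all 8 libraries. DIAPH2 was at 2.06 and 1.75 TPM in treated against 1.48 and 3.94 TPM in untreated Smad3(RA/KP) cells, and at 2.22 and 3.08 TPM in treated against 1.87 and 2.01 TPM in untreated wild-type cells, with log2 fold changes of -0.27 (SE 0.32) and 0.30 (SE 0.32). When untreated Smad3(RA/KP) replicate 2 was omitted, the Smad3(RA/KP) value of DIAPH2 was 0.18 (SE 0.31), all 6 formin genes were positive there, and FMNL1 was at 0.12 (SE 0.15).

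Some genes were on the same side in both lines. Both treated libraries exceeded both untreated libraries in each line for ARPC1B, ARPC5, BAIAP2L1, EVL, PFN1, LIMK1, LIMK2 and SSH2, which is 8 of 48 genes, where 8.64% of all tested genes showed this. They were below in each line for WASF1, CYFIP2, BAIAP2, CFL2 and DSTN, 5 of 48 genes, where 12.2% of all tested genes did. Counted by line, 10 genes were higher without overlap and 10 lower in Smad3(RA/KP) cells, where 19.0% and 25.4% of all genes were. In wild-type cells 16 were higher and 7 lower, where 17.8% and 27.9% of all genes were.

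No gene of the machinery passed a test between the 2 lines. For the difference of the TGF-β responses, 0 of 48 genes passed the limma threshold, where 0.0228% of all genes (3 genes) did. At an unadjusted p below 0.05 there were 2, CTTN and EVL, both higher in Smad3(RA/KP) cells, where 4.29% of all genes were (2.57% higher and 1.72% lower). With the GC trend removed, 0 of 48 genes had such a p, where 3.58% of all genes did. The median difference was -0.11 for the set and -0.02 for all genes, and without untreated Smad3(RA/KP) replicate 2 it was -0.02 for the set and 0.05 for all genes. Leaving out each of the other Smad3(RA/KP) libraries moved it as well: it was -0.30 for the set and -0.10 for all genes without untreated replicate 1, -0.26 and -0.12 without treated replicate 1, and 0.01 and 0.07 without treated replicate 2. Without untreated replicate 1, 18 of the 48 genes had an unadjusted p below 0.05, where 24.0% of all genes did, and 0 passed. Between treated lines 0 of 48 passed, where 0.00761% of all genes (1 gene) did, and CTTN (log2 difference 0.55, SE 0.15, adjusted p = 0.612) and ABI1 (-0.56, SE 0.22, adjusted p = 0.658) had an unadjusted p below 0.05, as 7.4% of all genes did (4.95% higher and 2.45% lower). Between untreated lines 0 of 48 passed, where 0.0152% of all genes (2 genes) did, and 1 had an unadjusted p below 0.05. With the GC trend removed, CTTN alone had such a p between treated lines, where 7.11% of all genes did. Between untreated lines 0 of 48 did, where 3.54% of all genes did. In bulk RNA, a different mix of cells and a different level per cell cannot be told apart.

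Genes that act around this machinery were taken from 2 further lists, also chosen with earlier results of these data known. Their counts are to be read against 4.98% of all genes in Smad3(RA/KP) cells and 4.68% in wild-type cells. Of 19 tested Rac and Cdc42 exchange factor genes (26 listed), 2 rose and 0 fell in Smad3(RA/KP) cells, and 2 rose and 1 fell in wild-type cells. VAV2 was at 87.0 and 70.5 TPM in treated against 37.0 and 40.7 TPM in untreated Smad3(RA/KP) cells, and at 64.7 and 69.6 TPM in treated against 39.6 and 37.3 TPM in untreated wild-type cells. It rose by 0.99 (SE 0.17, limma adjusted p = 0.0138) and 0.79 (SE 0.17, adjusted p = 0.0368) on the log2 scale. DOCK4 rose by 1.22 and 1.51, and VAV3 fell by 1.26 in wild-type cells. Of 40 tested other actin regulators of protrusion (59 listed), 3 rose and 0 fell in Smad3(RA/KP) cells, namely the formin FHOD1 (1.14), the filament bundler fascin, FSCN1 (1.03), and the capping protein regulator TWF2 (0.70). In wild-type cells 2 rose and 1 fell: the cofilin partner CAP1 (0.77), the formin FHOD3 (1.00) and, in the lower direction, the cofilin phosphatase PDXP (-0.85). For each gene that passed in 1 line only, both treated libraries of the other line lay on the same side of both untreated ones. FHOD3 was at 17.8 and 14.8 TPM in treated against 6.64 and 9.94 TPM in untreated Smad3(RA/KP) cells. VAV3 was at 1.49 and 0.52 against 4.03 and 2.25 TPM there. FSCN1 was at 365 and 362 TPM in treated against 230 and 215 TPM in untreated wild-type cells. For the difference of the responses 0 genes of these 2 lists passed. Without untreated Smad3(RA/KP) replicate 2, VAV2 still passed in Smad3(RA/KP) cells and FHOD3 did as well, while DOCK4, FHOD1, FSCN1 and TWF2 did not. With the GC trend removed, VAV2 and TWF2 no longer passed in Smad3(RA/KP) cells, DOCK4, FHOD1 and FSCN1 did, and DAAM1 passed as well. In wild-type cells under that setting, FHOD1, FSCN1, TWF2 and DAAM1 passed too, beside CAP1, FHOD3, PDXP, DOCK4, VAV2 and VAV3.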

How the data were processed

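RNA was poly(A)-selected and made into libraries with an Ion Total RNA-Seq kit (2 libraries for each of 4 groups). Per the submitters' processing notes, HISAT2 2.1.0 and StringTie 2.0.4 were used on GRCh38; the sources used here give neither the annotation version nor the use of strand in counting, so genes with an antisense partner are uncertain. The authors deposited 1 table per library with coverage, FPKM and TPM per gene, TPM being the unit used here; FPKM served as an alternative and coverage, with FPKM, only for depth (1.15 to 1.81 Gb). CYFIP1 had 2 records, which were summed, and ARPC4 overlaps a readthrough gene.

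A mean TPM of 1 or more was required, and the 13141 genes that passed were tested on log2(TPM + 1), which understates changes of low genes, with limma 3.58.1 (R 4.3.3): 4 groups plus the replicate number as a block, an intensity trend in the variance prior, and p-values adjusted by Benjamini-Hochberg over all tested genes, with a threshold of 0.05. Tables and figures used Python 3.11.15, pandas 2.3.3 and matplotlib 3.10.9. The replicate block follows the study's comparison of ratios within 2 experiments, but the correlations of replicate deviations between groups were 0.05 to 0.33, so the pairing rests on the number alone. The fit was tested on simulated data. GC content was that of the longest transcript per symbol in GENCODE, and promoter windows were those of RefSeq.

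Members and lists were chosen with earlier results of these data known. Named by rule were members past the threshold, those with the smallest p of their role group in each response and in the difference, and the most abundant of each role group (18 of 49); others were named after their values were seen. Alternatives were other pseudocounts (0.1 and 5 TPM), filters, units, scalings and blocks, removal of the GC trend, and leaving out each library. Some results on a further gene list and a marker of the stimulus are not reported here.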

Additional observations from a re-analysis of the deposited data

How the results depend on the processing

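The number of the 48 genes past the threshold for the TGF-β response in Smad3(RA/KP) cells (1) was 0 with no filter on low values, 3 with a mean TPM of at least 5 (CTTN, EVL and LIMK1), and 2 with FPKM or median-ratio scaling (CTTN and LIMK1) or with the GC trend removed (BAIAP2 and LIMK1). Leaving out 1 library gave 0 to 11: 0 without treated replicate 1, treated replicate 2 or untreated replicate 2, and 11 (22.9%) without untreated replicate 1, where 19.95% of all genes (2622) passed. For wild-type cells (0) it was 1 with a mean TPM of at least 5, FPKM or the GC trend removed (BAIAP2) and with median-ratio scaling or quantile normalization (LIMK2), and 0 to 1 when leaving out 1 library (1, BAIAP2, without untreated Smad3(RA/KP) replicate 1 or 2). It was 0 under all 19 alternatives for the difference of the responses and for both comparisons between lines. LIMK1 in Smad3(RA/KP) cells kept its direction under all 19 alternatives and passed under 15 (log2 fold change 0.78 to 1.03 among those); with no filter its adjusted p was 0.0516. Without the replicate block it was 0.0470, but all-gene calls were 269 in Smad3(RA/KP) and 277 in wild-type cells, against 655 and 615; with a replicate block within each line they were 376 and 372. With no filter they were 242 and 287, and with the GC trend removed 991 in wild-type cells. Leaving out 1 library they ranged over 163 (without treated replicate 2) to 2622 in Smad3(RA/KP) and 106 to 1011 in wild-type cells. For the difference of the responses, the untreated and the treated comparison of lines they were 0 to 8, 0 to 7 and 0 to 6 over all alternatives, against 3, 2 and 1. Higher calls were 69.9% of all calls in Smad3(RA/KP) cells, against 59.7% with FPKM, 57.9% with the GC trend removed, 90.2% without treated replicate 2 and, with lower calls in the majority, 37.9% without untreated replicate 1. Of 1023 log2 fold changes of named genes under alternatives, 28 changed sign, none of them past the threshold. The cause of these shifts was not tested. The replicate number pairs the samples only by name. Depth in reads per gene is unknown from TPM, so low genes such as FMNL3 and DIAPH2 carry no counting interval.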
